A study of Mus musculus with 6 samples.

Results

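Wnt ligands, their Frizzled receptors, the co-receptors Lrp5 and Lrp6, and the secreted antagonists of the Sfrp, Dkk and Wif kinds were followed in hearts of mouse embryos at embryonic day 11.5. The 41 genes were chosen by symbol from the 38918 genes of the deposited table, and all 41 are protein coding. They comprise 19 Wnt genes, 10 Frizzled genes, 2 Lrp genes, 5 genes of the Sfrp family (Frzb included), 4 Dkk genes and Wif1. Control embryos were Tie2 flox/wild-type littermates, in which no Cre is named. Mutant embryos were Nfatc1Cre:Tie2 flox/flox, so that Tek, which encodes the angiopoietin receptor Tie2, is deleted where Nfatc1, a gene of the endocardium, drives Cre. The strain background is given as C57/BL6 for both groups. RNA was taken from 18 whole hearts of each genotype, pooled and divided into 3 libraries per group. The libraries of a group may be portions of 1 pool, which the labels leave unclear. They were not alike in content. The mean log2 level of 4 Y-linked genes was 2.76, 2.76 and 3.71 in control replicates 1 to 3. In mutant replicates 1 to 3 it was 3.50, 3.87 and 3.91. The tests below measure only the spread between these libraries. Because only the mutants are named as carrying Cre, an effect of Cre and the loss of Tek cannot be told apart.

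Wnt proteins are lipid-modified secreted signals that bind Frizzled receptors on neighbouring cells. In the canonical branch, a Frizzled and Lrp5 or Lrp6 together stabilise beta-catenin, which then acts with TCF and LEF factors in the nucleus. Other branches steer cell polarity and calcium without beta-catenin. Sfrp proteins and Frzb carry a Frizzled-like domain and bind Wnt proteins outside the cell, Wif1 also binds Wnts, and Dkk1 and Dkk2 bind Lrp5 and Lrp6. In the embryonic heart these signals are known for outflow tract formation, valve cushion growth and the control of cardiomyocyte proliferation.

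The values are FPKM, fragments corrected for the length of the transcript and the yield of the library, so that levels can be set side by side between genes. FPKM summed to between 481334 and 582261 per library, between 12647 and 13041 genes reached 1 FPKM, and the read depth is unknown. Tek stood at 22.4, 25.7 and 16.6 FPKM in control replicates 1 to 3 and at 3.38, 3.13 and 3.13 FPKM in mutant replicates 1 to 3, a log2 fold change of -2.40 ± 0.15 (SE, limma adjusted p = 0.00131). Cardiomyocyte markers were abundant in every library, with Tnnt2 between 1155 and 2354 FPKM. Mutant replicate 1 stood apart: 6 of 8 foregut and lung epithelium markers and 4 of 6 pharyngeal and outflow mesoderm markers were highest there. So were 5 of 7 neural and neural crest markers. Only 2 of the 8 foregut markers had a mean of at least 1 FPKM. The foregut list summed to 36.8 FPKM in mutant replicate 1 and 24.6 to 34.8 FPKM elsewhere, and the mesoderm list to 31.7 and 4.81 to 6.78 FPKM. The lung and thyroid factor Nkx2-1 was at 2.50 FPKM in mutant replicate 1 and at most 0.289 FPKM in the other libraries. The mesodermal factor Foxf1 was at 13.1 FPKM there against at most 1.15 FPKM. Its cardiomyocyte markers summed to 13934 FPKM, against 20216 to 21762 FPKM in the other libraries. Mutant replicate 2 was highest for all 6 liver markers, with Afp at 123 FPKM and control replicate 1 next at 51.5 FPKM. Erythroid markers summed to 4311 to 7881 FPKM in control libraries and 32717 to 49971 FPKM in mutant libraries, a gap that lay in Hbb-y and Hba-x. Both are embryonic globin genes, which every control library lists at 0 and every mutant library at 11129 FPKM or more, while the other 4 erythroid markers, Hbb-bh1 among them, overlapped between the groups. A value of 0 can be a failed estimate, and the part of these genes in other FPKM values was not tested. Of the 5 macrophage markers found, 3 were tested, and all 3 had a log2 fold change above 0 (median 0.29). For 1 of the 3, Csf1r, the groups did not overlap, where 5.23% of all genes tested were higher in this way.

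Of the 41 genes, 24 had a mean of at least 1 FPKM over the 6 libraries and entered the test across all genes. The test was limma on log2(FPKM + 1), a scale on which the change of low genes is understated, and changes are given as mutant minus control. None of the 24 passed the adjusted p threshold of 0.05, where 0.177% of the 12988 genes tested did (0.123% lower and 0.0539% higher). At an unadjusted p under 0.05 there were 3 of 24, Wnt4 and Wnt11 lower and Sfrp1 higher, where 6.68% of all genes tested were past that limit, 4.37% lower and 2.31% higher (11.9% with the replicate number as a block, which left the same 3). The control and mutant libraries did not overlap for 4 of 24, these 3 and Dkk3, where the share over all genes tested was 13.4% (8.17% lower and 5.23% higher). Of the 24, 13 had a log2 fold change below 0 and 11 above, with a median of -0.01, as over all genes tested (-0.01). The median size of the change was 0.11 for the 24 and 0.11 for all genes tested. In 14 of the 24 the 95% interval of the log2 fold change lay within 0.5 on both sides of 0, and in 22 within 1. For most of them the data thus limit the size of a change without showing that there was none. That limit holds on the log2(FPKM + 1) scale and for the spread between these libraries. For low genes the limit on the ratio of FPKM itself is wider.

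**Figure D1:**
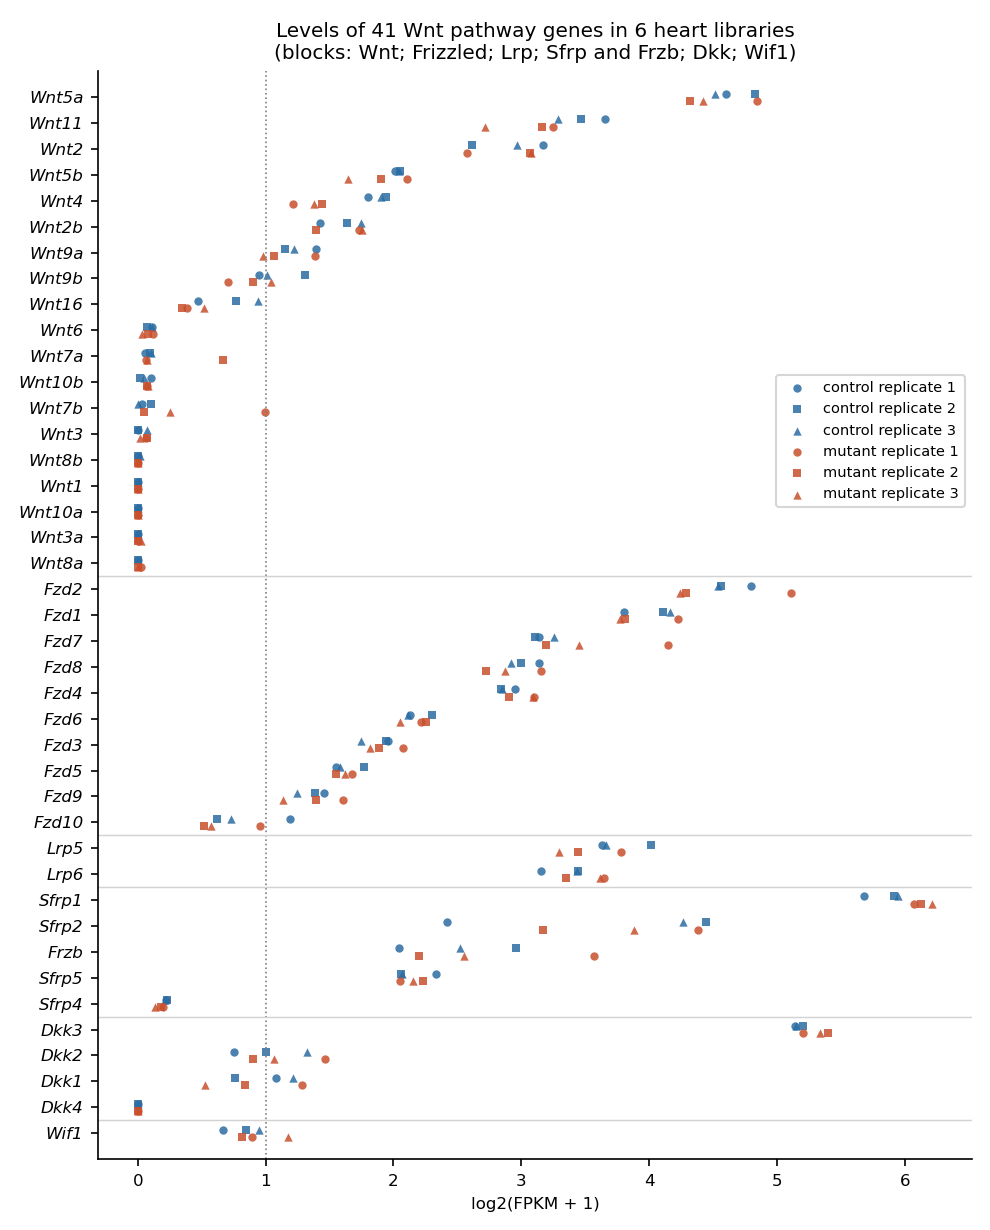
Levels of the 41 genes as log2(FPKM + 1) on the x axis, with 1 point per library and the genes in blocks by role, each ordered by the control mean. The dotted line marks 1 FPKM. Sfrp1, Dkk3, Wnt5a and Fzd2 lead their blocks, and 10 genes lie below 0.5 FPKM in every library.

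Among the ligands, Wnt5a was the most abundant, and 7 of 19 Wnt genes reached a mean of 1 FPKM. Summed over the 19 genes, ligand FPKM was 53.3, 54.3 and 49.2 in the control libraries and 52.0, 43.4 and 42.3 in the mutant libraries, with mutant replicate 1 inside the control range and the other two below it. Wnt5a made up between 43.7% and 53.4% of that sum. In controls the order was Wnt5a, Wnt11, Wnt2, Wnt5b, Wnt4, Wnt2b and Wnt9a, and the control libraries of each of these genes lay wholly above those of the next in the order. Of the 7 ligands tested, 6 had a log2 fold change below 0 and Wnt2b one above (0.02, and -0.0054 with quantile normalization), with a median of -0.12.

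Wnt4, a ligand known for kidney tubule and female reproductive tract formation, showed the lowest unadjusted p of the 24 genes. The gene spans chr4:137277489-137299726 (GRCm38, GENCODE M21). It was at 2.49, 2.83 and 2.74 FPKM across the control libraries, with 1.32, 1.72 and 1.59 FPKM in the mutant ones. Every mutant library lay below every control library, and the control mean was 1.74 times the mutant mean (2.69 ± 0.178 and 1.55 ± 0.203 FPKM, SD, n = 3 each). The log2 fold change was -0.54 ± 0.13 (SE, 95% interval -0.83 to -0.24), with a limma adjusted p of 0.349 over all genes tested (unadjusted 0.00336). Without any 1 library the log2 fold change lay between -0.59 and -0.47, and with expression of Y-linked genes as a covariate the unadjusted p was 0.0178. Markers of endothelium and endocardium were lower in the same libraries: 7 of 8 did not overlap between the groups (8.17% of all genes tested were lower in this way), and the 8 summed to between 275 and 305 FPKM in controls and between 177 and 210 FPKM in mutants. None of the 8 was near 0, and Emcn, the remaining marker, had group means of 45.6 FPKM (control) and 48.6 FPKM (mutant). In RNA from whole hearts, fewer cells of a type and less RNA per cell cannot be told apart, and the part of the endothelial share in the Wnt4 difference was not tested.

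Wnt11, a non-canonical ligand of the outflow tract and early myocardium, was next to Wnt5a in abundance and spans chr7:98835112-98855195. Its control libraries stood at 11.6, 10.04 and 8.79 FPKM and its mutant libraries at 8.50, 7.97 and 5.57 FPKM. The groups did not overlap, although control replicate 3 and mutant replicate 1 lay close together. The means were 10.1 ± 1.42 and 7.35 ± 1.57 FPKM (SD, n = 3 each), and the log2 fold change was -0.43 ± 0.17 (SE, 95% interval -0.82 to -0.04, limma adjusted p = 0.742, unadjusted 0.0354). Without any 1 library the log2 fold change lay between -0.53 and -0.26. The unadjusted p was 0.105 without control replicate 1, 0.0742 without control replicate 2 and 0.107 without mutant replicate 3, where the change was smallest. With the Y-linked covariate the log2 fold change was -0.17 (unadjusted p = 0.43). The covariate, the mean log2 level of 4 Y-linked genes, was 2.76, 2.76 and 3.71 in controls and 3.50, 3.87 and 3.91 in mutants. Control replicates 1 and 2 lay below every mutant library, so the covariate partly tracked genotype. In each fit with it, for this and other genes, the 2 cannot be fully told apart, and precision is lost. Over all genes, 371 were past an unadjusted limma p of 0.05 with the covariate and 867 without. The 4 smooth muscle markers did not go 1 way. Tagln and Cnn1 were lower in every mutant library (8.17% of all genes tested were), and Acta2 overlapped. Myh11, the only marker of the list above 0, had the largest log2 fold change, 0.74, with overlapping groups. At an unadjusted limma p under 0.05 there was 1 marker lower and 1 higher, the latter Myh11 (4.37% and 2.31% over all genes tested). Cnn1 was at 122, 113 and 113 FPKM (control) against 68.7, 97.0 and 84.5 FPKM (mutant).

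Promoters are shown for Wnt4 and Wnt11, the ligands whose groups did not overlap, as the sequence just upstream of the gene start (RefSeq, GRCm38.p6, the assembly behind mm10). Capitals mark ATCAAAG, the reverse complement of CTTTGAT, a core motif of TCF and LEF factors, searched on both strands in the 250 bases upstream of each start.
Wnt4 (chr4:137277385-137277488, plus strand): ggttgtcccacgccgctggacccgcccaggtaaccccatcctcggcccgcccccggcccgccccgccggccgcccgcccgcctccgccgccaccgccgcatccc
Wnt11 (chr7:98834862-98835111, plus strand): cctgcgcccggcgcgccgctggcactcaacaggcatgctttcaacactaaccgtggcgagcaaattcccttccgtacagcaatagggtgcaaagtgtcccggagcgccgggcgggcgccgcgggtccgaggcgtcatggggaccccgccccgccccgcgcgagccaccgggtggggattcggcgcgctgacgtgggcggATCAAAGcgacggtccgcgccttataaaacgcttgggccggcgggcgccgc
The Wnt4 sequence is cut to 104 bases because the GENCODE gene start lies upstream of the RefSeq one. Of 41 genes, 27 matched a promoter entry, with 30 windows in all. The motif was found in 2 of the 30 windows, those of Wnt11 and Wnt5b, and in 3.21% of all 32851 windows. A match is a description of letters and not a site.

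The other ligands overlapped between the groups. Wnt5a, a non-canonical ligand, was measured at 23.3, 27.4 and 21.9 FPKM in the controls and at 27.7, 18.96 and 20.4 FPKM in the mutant libraries. Its highest value was in mutant replicate 1, and the other two mutant libraries were below every control. Its log2 fold change was -0.12 ± 0.16 (SE, 95% interval -0.50 to 0.25, limma adjusted p = 0.894), and -0.28 without mutant replicate 1 (unadjusted p = 0.0656). Wnt5b, its close relative, was at 3.03, 3.14 and 3.12 FPKM (control libraries) and 3.31, 2.73 and 2.13 FPKM (mutant libraries), so that mutant replicate 1 was again the highest. Wnt2, a canonical ligand of the venous pole and the lung field, was at 8.03, 5.14 and 6.80 FPKM in control replicates 1 to 3 and at 4.96, 7.38 and 7.44 FPKM in mutant replicates 1 to 3. Its group means were 6.66 and 6.59 FPKM, with a log2 fold change of -0.01 ± 0.19 (SE, 95% interval -0.46 to 0.43, limma adjusted p = 0.995). Wnt2b was at 1.69, 2.12 and 2.36 FPKM and at 2.33, 1.63 and 2.38 FPKM, and Wnt9a was at 1.63, 1.23 and 1.33 FPKM and at 1.62, 1.095 and 0.971 FPKM, each with overlapping groups. The log2 fold changes were -0.15 ± 0.14 for Wnt5b, 0.02 ± 0.16 for Wnt2b and -0.11 ± 0.17 for Wnt9a (SE), with limma adjusted p of 0.843 for Wnt5b, 0.988 for Wnt2b and 0.909 for Wnt9a.

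Below 1 FPKM, Wnt9b, a ligand known from the kidney and from valve endocardium, was at 0.930, 1.48 and 1.01 FPKM across the control libraries, with 0.633, 0.864 and 1.06 FPKM in the mutant ones. Its mean over the 6 libraries, 0.996 FPKM, lay just under the limit for the test, and Dkk2 at 1.15 FPKM was the lowest gene inside it. Wnt16 was measured at 0.388, 0.703 and 0.922 FPKM in the controls and at 0.309, 0.268 and 0.436 FPKM in the mutant libraries, where 1 control library fell inside the mutant range. Wnt7b, a ligand of lung epithelium, was at 0.997 FPKM in mutant replicate 1, at 0.188 FPKM in mutant replicate 3 and at most 0.0773 FPKM elsewhere. Wnt7a was at 0.585 FPKM in mutant replicate 2 and at most 0.0742 FPKM in the other libraries. The departure of Wnt7a was thus in 1 library and that of Wnt7b mainly in 1, and neither gene was tested. Of the remaining ligands, Wnt3, Wnt3a, Wnt6, Wnt8a, Wnt8b and Wnt10b stayed under 0.1 FPKM in every library, and Wnt1 and Wnt10a were listed at 0 in all 6.

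**Figure D2:**
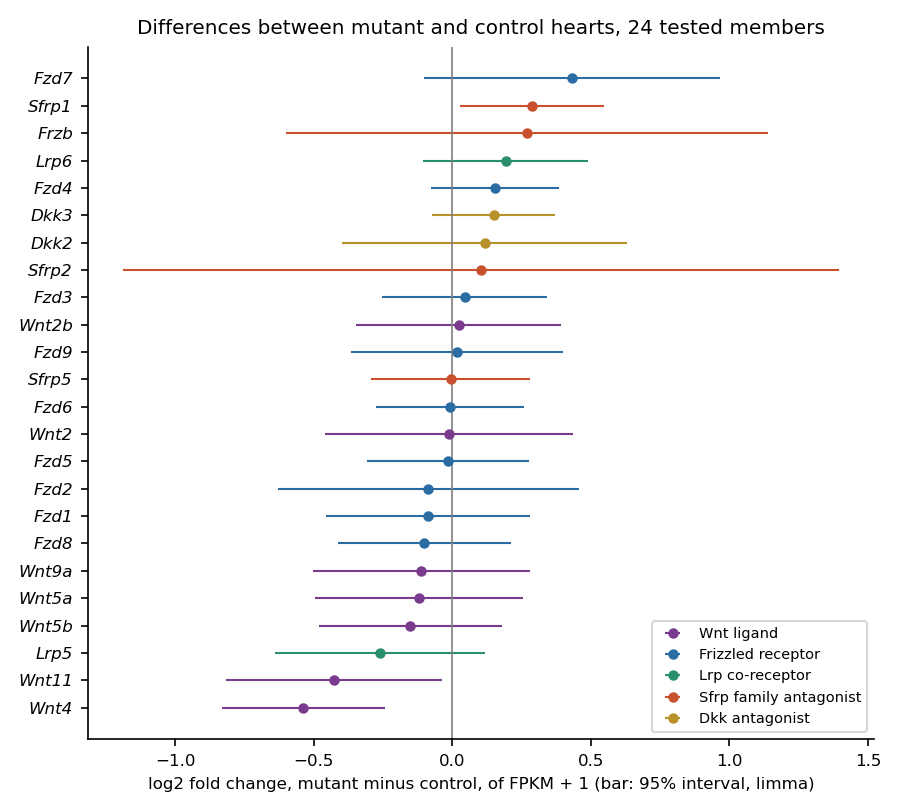
Log2 fold changes (mutant minus control, on FPKM + 1) of the 24 genes tested on the x axis, with bars for the 95% interval from limma and colours for the role. The intervals of Wnt4, Wnt11 and Sfrp1 exclude 0 before adjustment, and those of Sfrp2 (-1.19 to 1.39) and Frzb (-0.60 to 1.14) are the widest.

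All 10 Frizzled genes were above 0 FPKM in every library and 9 entered the test, with none past either threshold. Frizzleds are seven-pass membrane receptors whose outer cysteine-rich domain binds Wnt. Summed over the 10 genes, FPKM was 73.3, 71.0 and 70.3 in controls and 95.5, 62.3 and 63.9 in mutants, so mutant replicate 1 lay above and the other mutant libraries below all controls. In controls Fzd2 and then Fzd1 led with libraries wholly apart from each other and from the next gene, while Fzd7, Fzd8 and Fzd4 followed with neighbours that overlapped. Fzd6, Fzd3, Fzd5 and Fzd9 were lower, and Fzd10, at 0.827 ± 0.404 and 0.616 ± 0.278 FPKM (SD, n = 3 each), was the lowest. Fzd1, Fzd2 and Fzd7 are close relatives, and how reads matching more than 1 of them were counted was not stated in the sources used.

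Fzd7, a receptor for both canonical and polarity signals, had the largest positive log2 fold change of the 24 genes. It was at 7.81, 7.60 and 8.56 FPKM (control libraries) and 16.7, 8.16 and 9.94 FPKM (mutant libraries). Mutant replicate 1 carried most of that difference, and mutant replicate 2 lay inside the control range. The log2 fold change was 0.43 ± 0.23 (SE, 95% interval -0.10 to 0.97, limma adjusted p = 0.778), and 0.16 without mutant replicate 1. Fzd2 was also highest in mutant replicate 1, while the other mutant libraries lay below all controls. It was at 26.8, 22.7 and 22.3 FPKM in control replicates 1 to 3 and at 33.5, 18.5 and 17.9 FPKM in mutant replicates 1 to 3, with a log2 fold change of -0.09 ± 0.23 (SE, limma adjusted p = 0.961), and of -0.37 without mutant replicate 1 (unadjusted p = 0.0185). Fzd1 stood at 12.98, 16.2 and 16.96 FPKM across the control libraries, with 17.7, 13.1 and 12.7 FPKM in the mutant ones, again highest in mutant replicate 1 (log2 fold change -0.09 ± 0.16, SE, limma adjusted p = 0.931). Many foregut and mesoderm markers were highest in that library too. The match rests on that library alone, and the part of such tissue in these receptor values was not tested.

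The other Frizzled genes differed less. Fzd4, the receptor for norrin and a gene of endothelium, was measured at 6.74, 6.19 and 6.20 FPKM in the controls and at 7.59, 6.50 and 7.54 FPKM in the mutant libraries, with a log2 fold change of 0.15 ± 0.10 (SE, 95% interval -0.08 to 0.38, limma adjusted p = 0.808). Its mean was thus not lower in the mutants, where 7 of the 8 endothelial markers were. Fzd8 had 7.81, 6.99 and 6.55 FPKM (control) and 7.89, 5.59 and 6.34 FPKM (mutant), with overlapping groups and a log2 fold change of -0.10 ± 0.13 (SE, limma adjusted p = 0.894). Fzd6, which can restrain canonical signalling, had 3.39, 3.93 and 3.33 FPKM (control) and 3.64, 3.77 and 3.15 FPKM (mutant). Fzd3, a receptor of the polarity branch, had 2.88, 2.84 and 2.36 FPKM (control) and 3.22, 2.69 and 2.53 FPKM (mutant). The groups overlapped for both. Fzd5 had 1.93, 2.41 and 1.99 FPKM (control) and 2.19, 1.94 and 2.08 FPKM (mutant), and Fzd9 had 1.74, 1.61 and 1.37 FPKM (control) and 2.04, 1.63 and 1.203 FPKM (mutant), again overlapping. Fzd6, Fzd3, Fzd5 and Fzd9 had log2 fold changes between -0.02 and 0.04, and their 95% intervals together spanned -0.37 to 0.40. Their limma adjusted p were 0.994 for Fzd6, 0.964 for Fzd3, 0.99 for Fzd5 and 0.991 for Fzd9. Fzd10, which was not tested, had 1.29, 0.535 and 0.658 FPKM (control) and 0.935, 0.429 and 0.484 FPKM (mutant), and control replicate 1 was its highest library.

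The co-receptors Lrp5 and Lrp6 were measured at similar levels and leaned in opposite directions. Lrp5 was at 11.4, 15.1 and 11.6 FPKM (control libraries) and 12.8, 9.90 and 8.80 FPKM (mutant libraries), and Lrp6 was at 7.89, 9.91 and 9.83 FPKM in control replicates 1 to 3 and at 11.5, 9.22 and 11.3 FPKM in mutant replicates 1 to 3. The groups overlapped for both genes. In controls every Lrp5 library lay above every Lrp6 library, whereas in mutant replicate 3 Lrp6 was the higher of the pair. The log2 fold changes were -0.26 ± 0.16 for Lrp5 and 0.19 ± 0.13 for Lrp6 (SE, limma adjusted p = 0.808 and 0.809), and the difference between them was not tested. The log2 fold change of Lrp5 depended on single libraries. It was -0.40 without mutant replicate 1 (unadjusted p = 0.0352), -0.14 without control replicate 2 (0.432) and -0.15 without mutant replicate 3 (0.406). With the Y-linked covariate it was -0.05 (unadjusted p = 0.811).

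**Figure D3:**
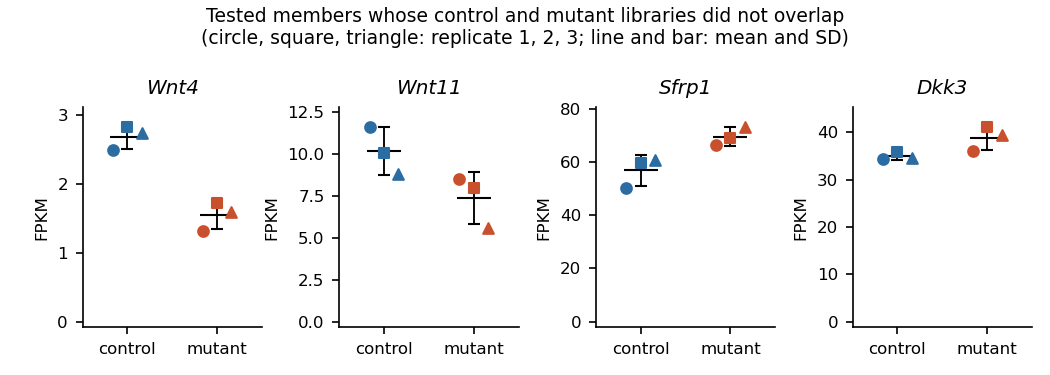
FPKM of Wnt4, Wnt11, Sfrp1 and Dkk3 in the 3 control and 3 mutant libraries, each panel on its own y axis from 0, with the group mean and SD. Wnt4 shows the widest gap relative to its level, and in Wnt11 and Dkk3 the nearest libraries of the groups almost meet.

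The Sfrp family was led by Sfrp1, the most abundant of all 41 genes, which made up between 65.8% and 81.7% of the family's FPKM in a library. Sfrp1 is a secreted Wnt-binding protein of mesenchyme and early myocardium, and its gene spans chr8:23411502-23449632. It was at 50.2, 59.5 and 60.8 FPKM across the control libraries, with 66.3, 68.95 and 73.3 FPKM in the mutant ones. All mutant libraries lay above all controls, and the means were 56.9 ± 5.77 and 69.5 ± 3.55 FPKM (SD, n = 3 each), 22.2% higher in mutants. The log2 fold change was 0.29 ± 0.11 (SE, 95% interval 0.03 to 0.55, limma adjusted p = 0.742, unadjusted 0.0338). It ranged from 0.20 to 0.34 without any 1 library, with an unadjusted p between 0.0374 and 0.114 that was above 0.05 on leaving out control replicate 1 or 2 or mutant replicate 2 or 3. With the Y-linked covariate it was 0.17 (unadjusted p = 0.331). Of the 6 epicardial markers tested, 4 had a log2 fold change above 0 and 2 below. Tbx18 was higher in every mutant library (log2 fold change 0.21) and Tcf21 lower in every one (-0.16), while Wt1 (0.24) and Upk3b (-0.19) overlapped. Over all genes tested, 5.23% were higher and 8.17% lower in every mutant library. Over the 7 markers of the list the sums overlapped, at 159 to 175 FPKM in controls and 162 to 174 FPKM in mutants.

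Sfrp2 and Frzb varied more between libraries of a group than between the groups. Sfrp2 was measured at 4.35, 20.8 and 18.2 FPKM in the controls and at 19.9, 7.999 and 13.7 FPKM in the mutant libraries. Control replicate 1 was the lowest, and the matrix gene Postn, a cushion mesenchyme marker, was also lowest there, at 60.2 FPKM against 70.5 to 161 FPKM elsewhere. The cushion markers did not all follow, and 1 of the 6 was highest in control replicate 1. Their sum was 330 FPKM in that library and 354 FPKM in mutant replicate 1, where Sfrp2 was at 19.9 FPKM. The part of cushion tissue in the Sfrp2 values was not tested. The log2 fold change of Sfrp2 was 0.10 ± 0.55 (SE, limma adjusted p = 0.985) over all libraries and -0.83 within replicates 2 and 3 (unadjusted p = 0.0185). Frzb, a Wnt antagonist of cartilage and cushion mesenchyme, was at 3.12, 6.77 and 4.73 FPKM (control libraries) and 10.9, 3.59 and 4.87 FPKM (mutant libraries), so that mutant replicate 1 was the highest by far. Its log2 fold change, 0.27 ± 0.37 (SE, limma adjusted p = 0.899), became -0.13 without that library. Sfrp5, known from the inflow region and foregut, was at 4.04, 3.16 and 3.18 FPKM in control replicates 1 to 3 and at 3.16, 3.69 and 3.44 FPKM in mutant replicates 1 to 3. Its groups overlapped, with a log2 fold change of -0.01 ± 0.12 (SE, limma adjusted p = 0.996). Sfrp4 stayed at or below 0.170 FPKM in every library; its groups did not overlap (0.166 ± 0.00411 and 0.128 ± 0.0251 FPKM, SD, n = 3 each), at a level that was not tested.

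In the Dkk family, Dkk3 made up between 91.8% and 96.2% of the summed FPKM. Dkk3 is a divergent member that is not known to block Lrp6 as Dkk1 does, and its gene spans chr7:112116017-112159057. It was at 34.4, 35.8 and 34.5 FPKM across the control libraries, with 35.9, 41.2 and 39.4 FPKM in the mutant ones, the lowest mutant library just above the highest control. The log2 fold change was 0.15 ± 0.09 (SE, 95% interval -0.07 to 0.37, limma adjusted p = 0.808, unadjusted 0.155). The canonical antagonists were low. Dkk2 was measured at 0.690, 1.005 and 1.499 FPKM in the controls and at 1.76, 0.865 and 1.097 FPKM in the mutant libraries, and Dkk1 was at 1.12, 0.698 and 1.32 FPKM (control libraries) and 1.44, 0.792 and 0.443 FPKM (mutant libraries), both highest in mutant replicate 1. Dkk2 had a log2 fold change of 0.12 ± 0.22 (SE, limma adjusted p = 0.935). Dkk4 was listed at 0 in all 6 libraries. Wif1, which binds Wnt proteins directly, was at 0.591, 0.795 and 0.926 FPKM in control replicates 1 to 3 and at 0.855, 0.762 and 1.26 FPKM in mutant replicates 1 to 3.

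Mutant replicate 1 stood apart for the Wnt genes as a group, a pattern noticed after the values were seen. It held the highest value of 12 of the 24 genes tested, where it did so for 17.2% of all genes tested. Among them were Wnt5a, Fzd1, Fzd2, Fzd7, Lrp6 and Frzb. Outside the 24 it was also highest for Wnt7b and for the R-spondin gene Rspo2, an amplifier of Wnt signalling named after its values were seen, at 3.35 FPKM against at most 0.765 FPKM elsewhere. The more abundant R-spondin genes did not follow. Rspo3 was lowest there, at 7.39 FPKM against 9.34 to 10.9 FPKM elsewhere, and Rspo1 was at 4.82 FPKM, inside the range of the other libraries. Of the 9 genes for R-spondins and receptor turnover, 4 were highest there. Of the 8 feedback targets of canonical signalling found, 0 were highest in mutant replicate 1. Leaving that library out, 5 of 25 genes tested were past an unadjusted p of 0.05 (Wnt4, Wnt11, Lrp5 and Fzd2 lower, Sfrp1 higher), where 6.75% of all genes were, and none was past the adjusted threshold. The groups then did not overlap for 10, where 27.2% of all genes did not. Within replicates 2 and 3, 8 of 25 were past the unadjusted limit (11.0% of all genes) and 15 did not overlap (46.0%). With the Y-linked covariate, which partly tracked genotype, Wnt4 alone of the 24 was past it (2.86% of all genes).

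**Figure D4:**
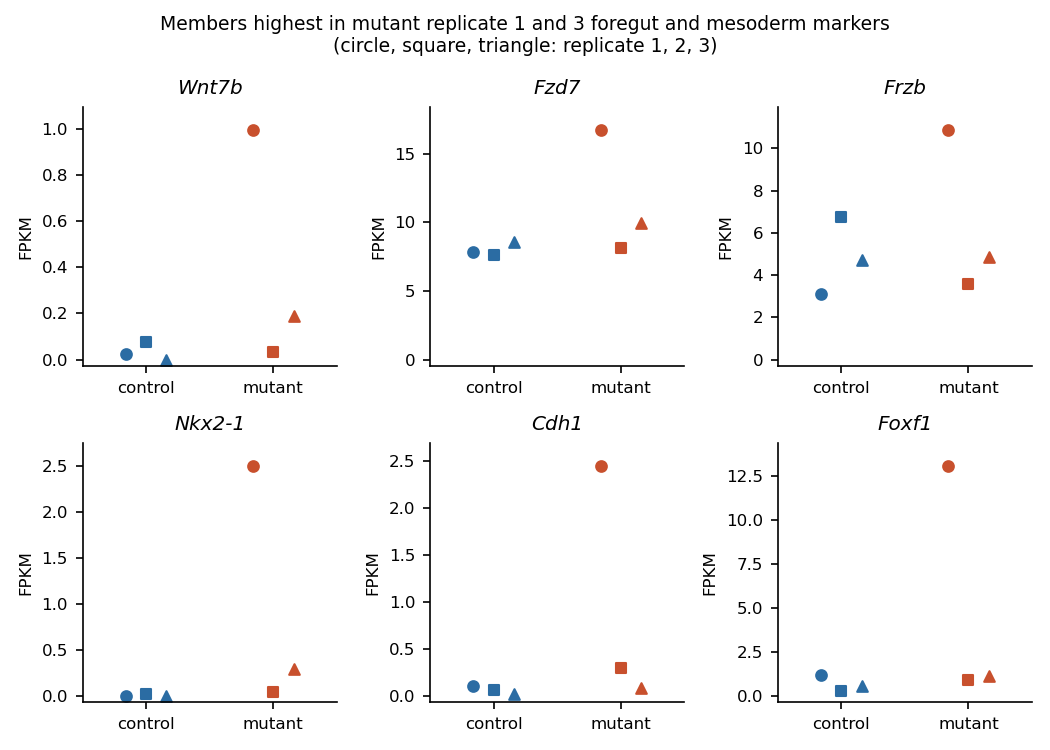
FPKM of Wnt7b, Fzd7 and Frzb (upper row) and of the foregut markers Nkx2-1 and Cdh1 and the mesodermal marker Foxf1 (lower row) in each library, on y axes of their own. The genes were chosen after their values were seen, as ones highest in mutant replicate 1 (circle in the mutant column). Examples are 16.7 FPKM for Fzd7 and 13.1 FPKM for Foxf1. Over the full sets, 12 of the 24 genes tested, 6 of 8 foregut markers and 4 of 6 mesoderm markers were highest there.

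The rest of the pathway was read from 7 lists with 82 genes found in the table, of which 68 were tested. None passed the adjusted threshold in either direction, and at an unadjusted p under 0.05 there were 3 lower and 0 higher, or 3 of 68 where 6.68% of all genes tested were past it (4.37% lower and 2.31% higher). The median log2 fold change was 0.02, with 33 genes below 0 and 35 above, and the groups did not overlap for 7 of 68, where the share over all genes tested was 13.4%. Neither count is above the share over all genes. For secretion of Wnt proteins, the acyltransferase gene Porcn was at 2.13 ± 0.394 and 2.33 ± 0.262 FPKM and the carrier gene Wls at 46.4 ± 2.87 and 47.9 ± 4.64 FPKM in controls and mutants (SD, n = 3 each). In the R-spondin list of 4 tested genes, the R-spondin receptor gene Lgr4 was the most abundant and had the lowest p, at 12.9 ± 0.300 and 14.98 ± 2.12 FPKM with groups that did not overlap (log2 fold change 0.19, limma adjusted p = 0.807).

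The 3 pathway genes past the unadjusted limit, Apcdd1, Kremen1 and Sost, belong to the list of other Wnt receptors and inhibitors. Apcdd1, a membrane inhibitor that is itself a target of the pathway, was at 5.98, 8.34 and 8.24 FPKM across the control libraries, with 5.09, 5.34 and 4.41 FPKM in the mutant ones. Its groups did not overlap, and the log2 fold change was -0.51 ± 0.14 (SE, 95% interval -0.84 to -0.18, limma adjusted p = 0.55, unadjusted 0.00796). Kremen1, a receptor for Dkk proteins, was measured at 12.05, 12.8 and 12.7 FPKM in the controls and at 10.7, 9.71 and 10.9 FPKM in the mutant libraries (log2 fold change -0.24 ± 0.09, SE, limma adjusted p = 0.742). Sost, the gene for sclerostin, which binds Lrp5 and Lrp6, was at 5.16, 4.13 and 2.77 FPKM (control libraries) and 3.003, 2.49 and 2.25 FPKM (mutant libraries), with overlapping groups (log2 fold change -0.46 ± 0.19, SE, limma adjusted p = 0.742). With the Y-linked covariate Sost had a log2 fold change of -0.04 (unadjusted p = 0.812), and without control replicate 1 it had -0.30 (0.134). Its unadjusted p was under 0.05 in 5 of 12 alternatives, that of Kremen1 in 9 of 13 and that of Apcdd1 in 13 of 13. The same list also held Gpc3, a cell-surface proteoglycan gene and the most abundant of its 14 tested genes, at 281 ± 24.2 and 318 ± 29.2 FPKM.

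Inside the cell, the beta-catenin gene Ctnnb1 averaged 221 ± 27.2 FPKM in control and 212 ± 28.6 FPKM in mutant libraries (SD, n = 3 each), and its log2 fold change was -0.06 ± 0.14 (SE). Of the 18 cytoplasmic transducers tested, 11 were below 0 and 7 above, and Ctnnbip1, a beta-catenin inhibitor, had the lowest p (log2 fold change -0.20). Of the 13 nuclear factors, 6 were below 0 and 7 above, with Lef1 at -0.15, Bcl9 at 0.16 and Cby1 at -0.21. The polarity branch had 5 of 10 genes on either side of 0, with Prickle2 at -0.20 and Daam1 at -0.02.

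Feedback targets of canonical signalling were measured directly. Axin2, the most general of them, was at 2.75, 3.13 and 3.39 FPKM in control replicates 1 to 3 and at 3.18, 3.61 and 3.31 FPKM in mutant replicates 1 to 3. The groups overlapped, and the log2 fold change was 0.10 ± 0.11 (SE, 95% interval -0.17 to 0.36, limma adjusted p = 0.879). Nkd1, a Dishevelled-binding inhibitor, was at 4.96, 5.50 and 4.42 FPKM across the control libraries, with 4.105, 4.19 and 4.003 FPKM in the mutant ones, with groups that did not overlap (log2 fold change -0.22 ± 0.11, SE, limma adjusted p = 0.772). Ccnd1, the cyclin D1 gene and the most abundant of the 7 tested targets, was at 47.7 ± 5.99 and 45.2 ± 4.16 FPKM. Over the list, 3 genes were below 0 and 4 above, with a median of 0.04.

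**Figure D5:**
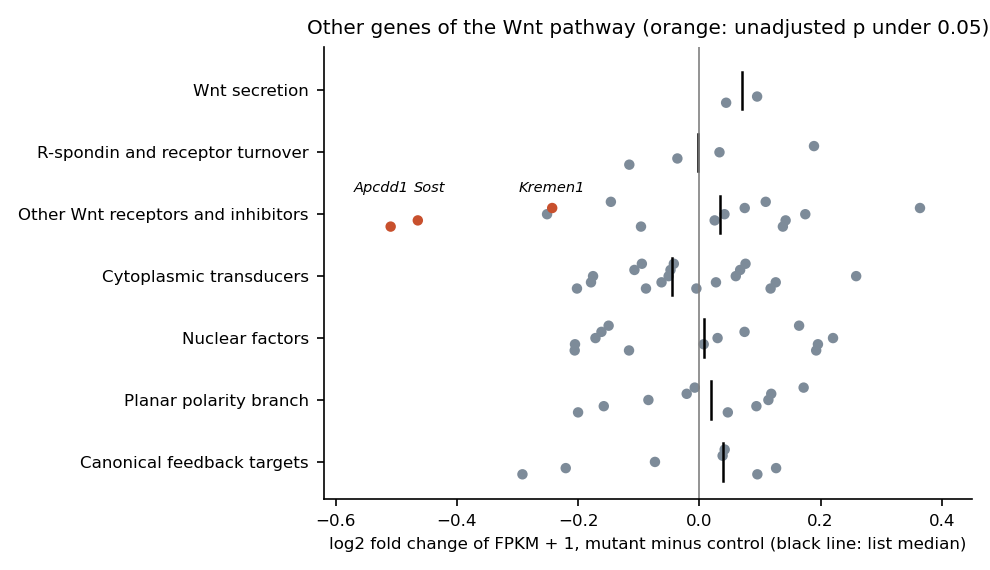
Log2 fold changes (mutant minus control, on FPKM + 1) of 68 tested pathway genes outside the 41, by list, with black lines for list medians. Orange points (Apcdd1, Sost and Kremen1) have an unadjusted p under 0.05, and the medians lie between -0.04 and 0.07.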

How the data were processed

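RNA of whole hearts was sequenced after Trizol extraction and Illumina TruSeq library preparation, per the labels' protocols. The authors deposited FPKM values per gene. Tools listed in the submitters' processing notes, without role or order, are Cuffdiff, HTSeq, Cufflinks (2.2.1) and TopHat2 (2.0.9), with mm10 as the build; annotation, strand setting and depth were not stated in the sources used. The 12988 genes whose mean reached 1 FPKM were tested on log2(FPKM + 1) with limma version 3.58.1 in R 4.3.3 (intensity trend, no block, Benjamini-Hochberg adjustment over all genes tested, threshold 0.05), after a check on simulated data. Positions are from GENCODE M21 (GRCm38).

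The genes and lists were chosen with earlier results of these data known. Every gene found by symbol is accounted for; of each pathway list the text names genes past the threshold or, with none, the gene with the lowest unadjusted p and the gene with the highest mean, with Axin2, Lef1, Ctnnb1, Porcn and Wls always. Other names were chosen after their values were seen.

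Libraries with the same replicate number deviated together from their group means, with correlations of 0.27, 0.11 and 0.44 across 12805 tested genes that no library lists at 0, and of 0.19, 0.03 and 0.23 over all tested genes. The numbers come from the sample titles. The main fit did not pair the libraries, and only the alternative with a replicate block did. For replicate 2 a pairing is uncertain, since control replicate 2 and mutant replicate 3 correlated at 0.095 across the 12805 genes.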

Additional observations from a re-analysis of the deposited data

How the results depend on the processing

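No gene of the 24 passed the adjusted threshold under any alternative, the replicate block and the 6 fits without a library included. Wnt4 kept a negative log2 fold change, and an unadjusted p under 0.05, in all 12 alternatives that held it, Wnt11 had such a p in 9 of 13 and Sfrp1 in 8 of 13. The count of Wnt genes at that limit was 3 with the replicate block, 8 within replicates 2 and 3, 1 with the Y-linked covariate and 1 to 5 without any 1 library. Groups did not overlap for 15 genes within replicates 2 and 3 (46.0% of all genes there) and for 4 to 10 without any 1 library, since smaller groups overlap less. The count of 10 was without mutant replicate 1, where groups did not overlap for 27.2% of all genes. In the other fits without 1 library the share over all genes was not computed, so those counts cannot be set against it. Over all genes, 23 passed the adjusted threshold, 14 with no filter, 7 with the Y-linked covariate, 17 with the replicate block and 10 to 18 without any 1 library. At an unadjusted p under 0.05 there were 867, and 1374 with no filter, 570 at a minimum mean of 5 FPKM, 1542 with the replicate block, 1425 within replicates 2 and 3, 371 with the Y-linked covariate and 451 to 1157 without any 1 library. Some log2 fold changes changed sign, among them Sfrp2 from 0.10 to -0.83 within replicates 2 and 3, and the cause was not tested. With quantile normalization these were Wnt2b -0.0054, Fzd9 -0.018 and Daam1 0.010. Within replicates 2 and 3 they were Wnt2 0.28, Wnt2b -0.12, Fzd9 -0.048, Sfrp2 -0.83, Frzb -0.36, Sfrp5 0.13, Dkk2 -0.18, Porcn -0.055, Bcl9 -0.018 and Daam1 0.01. With the Y-linked covariate they were Wnt5a 0.12, Wnt2b -0.077, Wnt9a 0.015, Fzd2 0.21, Fzd8 0.078, Fzd6 0.075, Fzd5 0.055, Sfrp2 -0.20, Sfrp5 0.042, Dkk2 -0.038, Porcn -0.012, Ctnnb1 0.14, Ccnd1 0.055 and Axin2 -0.023. Without any 1 library the ranges across 0 were Sfrp2 -0.54 to 0.47, Frzb -0.13 to 0.56, Fzd2 -0.37 to 0.065, Dkk2 -0.043 to 0.26, Wnt2 -0.16 to 0.15, Wnt2b -0.066 to 0.14, Fzd9 -0.095 to 0.14, Fzd3 -0.031 to 0.098, Fzd5 -0.057 to 0.052, Fzd6 -0.049 to 0.052, Sfrp5 -0.053 to 0.086, Porcn -0.0069 to 0.18, Wls -0.033 to 0.093, Ctnnb1 -0.17 to 0.035, Daam1 -0.12 to 0.105 and Ccnd1 -0.12 to 0.026. FPKM without counts leaves the precision of genes under 1 FPKM unknown.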

Other observations

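Several Wnt genes lie in neighbouring pairs, and within a pair the levels were unequal (GRCm38, GENCODE M21). On chromosome 11, Wnt9a (59306928 to 59333552) is 16.2 kb from Wnt3a, and its mean over the 6 libraries was 1.31 FPKM while Wnt3a was above 0 in 1 library. On the same chromosome Wnt9b (103727364 to 103749821) is 24.3 kb from Wnt3, with means of 0.996 and 0.0266 FPKM. The other pairs, Wnt6 with Wnt10a on chromosome 1 (6.19 kb apart) and Wnt10b with Wnt1 on chromosome 15 (11.7 kb apart), had both partners under 0.1 FPKM in every library.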
